A study of Homo sapiens with 4 samples.

Results

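The peaks described here lie on chromosome 6 between positions 25800001 and 28300000 of the hs1 assembly, in lists made by CUT&Tag for SAF-A (scaffold attachment factor A, also known as HNRNPU) in wild-type RPE1, an immortalised line from human retinal pigment epithelium. CUT&Tag tethers a transposase to an antibody-bound protein, so that fragments cut next to that protein are sequenced. The study compared 2 libraries from asynchronous cells with 2 from mitotic, synchronised cells, with replicates 3 and 4 in each, and each assay started from 100000 cells with 1 pg of E. coli DNA. The method of synchronisation was not described, and nothing in the labels makes the replicates separate cultures, so every p-value below reflects the spread of these samples alone, which may be technical. A peak was taken as a member when its summit, the position with the most overlapping fragments, lay in the interval. The asynchronous lists held 133 and 121 members and the mitotic lists 110 and 178, which is 542 of 371322 nuclear peaks. Pairs of values below give replicate 3 before replicate 4.

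The short arm of chromosome 6 carries the largest human group of replication-dependent histone genes in band 6p22. These genes encode the linker histone H1 and the core histones H2A, H2B, H3 and H4, and they are transcribed mainly in S phase, when newly made DNA is packaged. Genes for transfer RNAs, which are read by RNA polymerase III, lie among them. SAF-A binds RNA and DNA and is known as a component of interphase chromatin. In the RefSeq gene table of GRCh38.p14, 53 coding histone genes stand between H1-1 and H2BC17, made up of 6 of the H1 family, 11 H2A, 14 H2B, 10 H3 and 12 H4 genes, and 98 tRNA genes are listed among them. By their order they form 4 runs: 9 genes from H1-1 to H1-2, then, after HFE, a regulator of iron uptake, 23 genes from H4C3 to H4C8. The next run, of 5 genes from H2BC11 to H2AC12, follows a stretch with 6 butyrophilin genes, which belong to the immunoglobulin superfamily, and the last has 16 genes from H2BC13 to H2BC17. That table is of another assembly than the peak lists, so no peak was assigned to a gene, the name of the gene cluster was not checked against the data, and the members are called peaks of the 6p22 interval.

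The 6p22 interval held more SAF-A peaks per Mb than its flank in every library. Asynchronous lists had 53.2 and 48.4 peaks per Mb there and mitotic lists 44.0 and 71.2. The flank, the 5.8 Mb that end where the interval begins, had 32.8 and 26.9 against 29.0 and 38.1 peaks per Mb. The interval was denser in 4 of 4 libraries, by 1.62 and 1.80 times in asynchronous and 1.52 and 1.87 times in mitotic cells. The mean was 54.2 ± 11.9 against 31.7 ± 4.92 peaks per Mb (SD, n = 4), with a geometric mean ratio of 1.70 (exact two-sided sign-flip permutation p = 0.13, the smallest that 4 libraries allow). Among 1234 other stretches of 2.5 Mb over the nuclear chromosomes, between 205 and 272 held more peaks than the interval, depending on the library.

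The higher density than in the flank rested on a peak-poor part of the flank. Against all the rest of chromosome 6 the geometric mean ratio was 2.16. Split after seeing the data, the far 4.2 Mb of the flank held 18.6 ± 3.09 peaks per Mb and the 1.6 Mb next to the interval 65.9 ± 10.9 (SD, n = 4). Against the near part the interval was less dense in 4 of 4 libraries, at a geometric mean ratio of 0.816. The 2.5 Mb that follow the interval, also chosen after seeing the data, held 67.8 ± 14.6 peaks per Mb (SD, n = 4). Against them the ratio was 0.800. The exact sign-flip permutation p was 0.13 for each. Since both stretches were chosen with the densities known, these p-values are a description and no support for a difference.

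**Figure D1:**
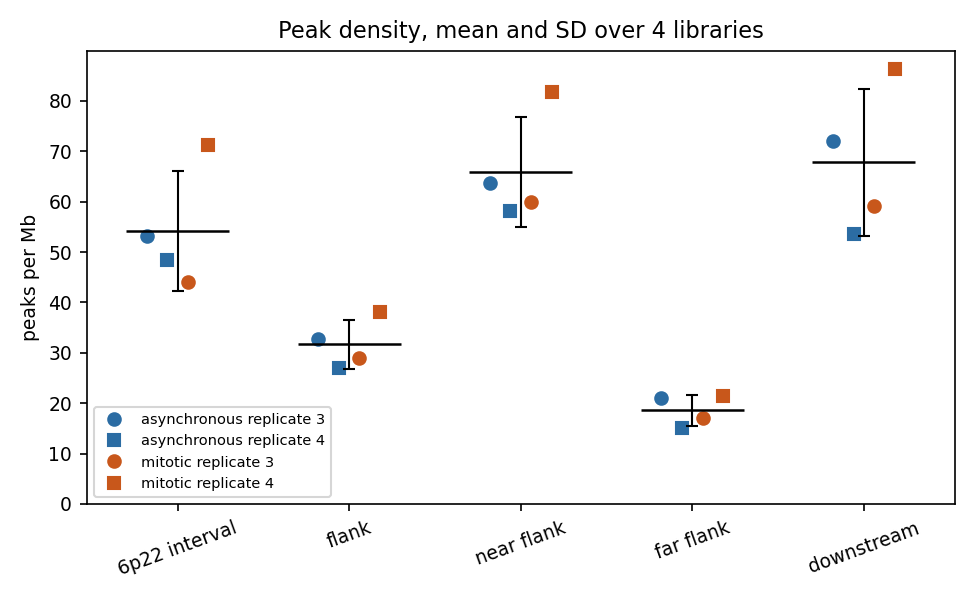
Peaks per Mb (vertical axis) in the 6p22 interval, its flank, the near and far parts of that flank and the 2.5 Mb downstream, for asynchronous (blue) and mitotic (orange) libraries of replicates 3 (circles) and 4 (squares). Horizontal lines are means and bars are SD over 4 libraries, and the interval (mean 54.2) stands above the whole flank (31.7) and below the near flank (65.9) and the downstream stretch (67.8).

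Within the interval, peaks gathered at both ends and were sparse in the middle. Over the 25 windows of 100 kb the median window had 5 and 4 summits in asynchronous cells against 4 and 7 in mitotic cells, and 23 windows had a summit in every library. The first window of the interval held the most, with 12 and 11 asynchronous against 9 and 15 mitotic summits. Next came 26.2 to 26.3 Mb, with 11 and 10 against 3 and 11 summits, and 26.3 to 26.4 Mb, with 8 and 7 against 12 and 7. In the former only mitotic replicate 3 was low, and in the latter it was the highest. The window from 28.0 to 28.1 Mb had 7 and 8 against 6 and 11 summits, and that from 25.9 to 26.0 Mb had 5 and 9 against 5 and 12.

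The emptiest window, 26.6 to 26.7 Mb, had no summit in 3 of the libraries and 3 in mitotic replicate 4, the longest list. The window from 26.8 to 26.9 Mb had 1 and 3 asynchronous against 1 and 2 mitotic summits. In the window from 27.8 to 27.9 Mb, asynchronous replicate 3 had none, asynchronous replicate 4 had 3, and the mitotic libraries had 4 and 2. Neither of these sparse windows separated the cell states. Summed over stretches chosen after seeing the data, the first 0.6 Mb held 80.0 and 76.7 asynchronous against 61.7 and 103 mitotic summits per Mb. Over the next 0.9 Mb the density was 28.9 and 33.3 against 33.3 and 47.8 summits per Mb, and over the last 1 Mb it was 59.0 and 45.0 against 43.0 and 73.0. The middle stretch was the lowest of these in every library.

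The profile over windows was only loosely repeated from library to library. Across the 25 windows, summit counts correlated with Spearman's rho of 0.47 between the asynchronous and 0.44 between the mitotic libraries, and 0.41 to 0.61 across cell states, given as a description, since neighbouring windows share sequence features and are not independent. Neighbouring summits of a library were 10.1 to 13.5 kb apart in the median. The longest peak-free stretch measured 177 and 203 kb in asynchronous lists and 212 and 87.2 kb in mitotic lists. With all lists joined, the longest stretch without a peak ran from 27275470 to 27341502 (66.0 kb).

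**Figure D2:**
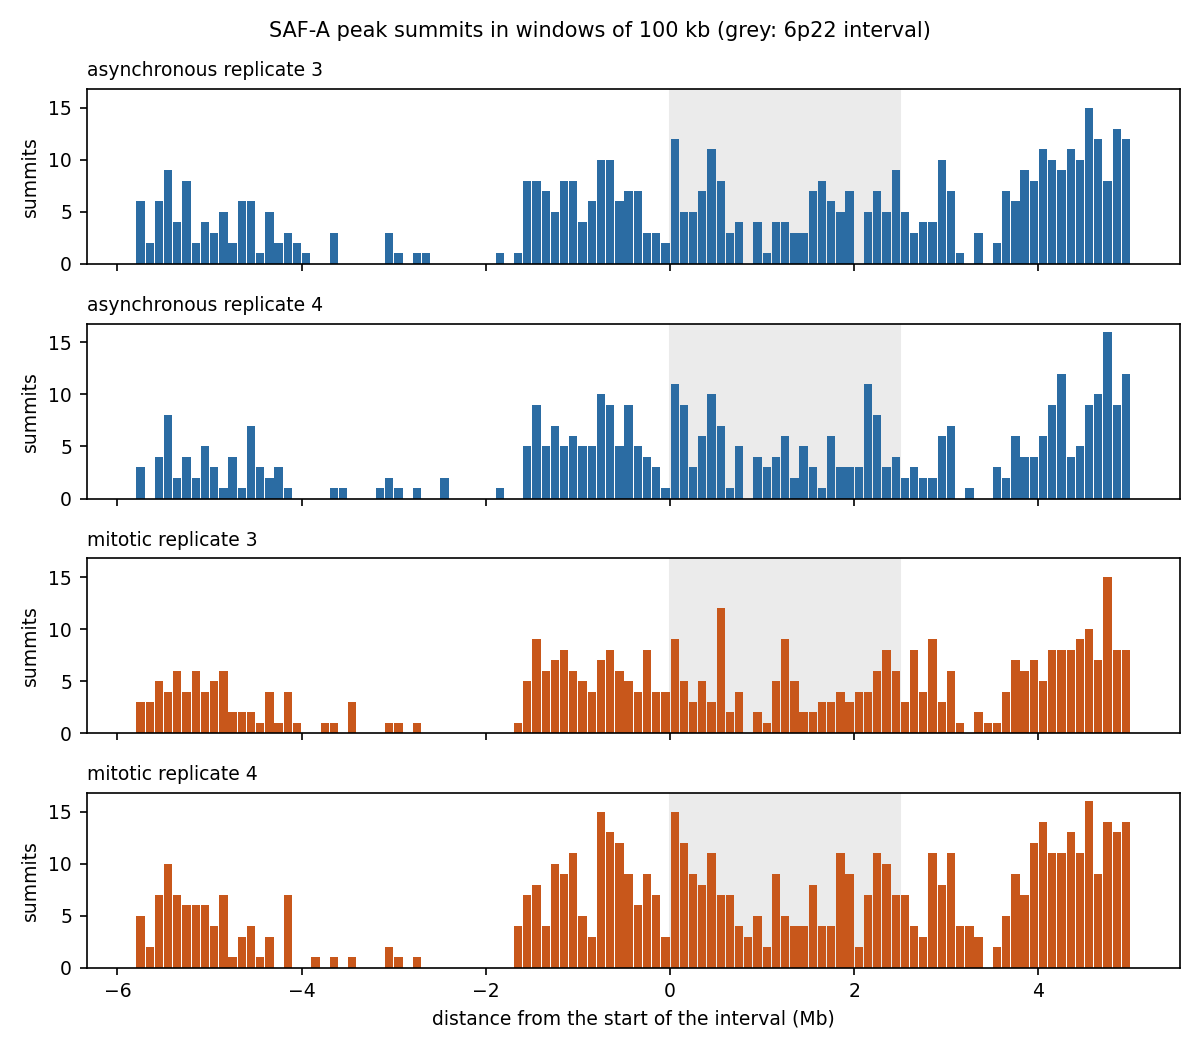
Number of SAF-A peak summits per 100 kb window (vertical axis) against the distance in Mb from the start of the 6p22 interval (horizontal axis), 1 panel per library, with the interval shaded grey. The window at the start of the interval reaches 12, 11, 9 and 15 summits, and the far flank to the left is nearly empty just before the near flank begins.

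The share of peaks in the strongest 10% of their list was lower in the 6p22 interval than over the nuclear genome in 4 of 4 libraries. Within each list, peaks were ranked by the authors' q-value, and the strongest 10% of the list served as the measure. Of interval peaks, 6 of 133 (4.51%, 95% Wilson interval 2.08% to 9.49%) and 4 of 121 (3.31%, 1.29% to 8.19%) belonged to it in asynchronous cells. In mitotic cells the counts were 7 of 110 (6.36%, 3.12% to 12.6%) and 14 of 178 (7.87%, 4.74% to 12.8%). Such intervals cover counting error only. All 4 libraries lay under the 10% of the nuclear genome, with a mean share of 5.51% ± 2.01 (SD, n = 4; exact sign-flip permutation p = 0.13). The size of this difference depended on the limit: the interval's mean share was 0.551 times that of all nuclear peaks for the strongest 10%, 0.344 times for the strongest 5% and 0.846 times for the strongest 20%. For peaks with a -log10 q of at least 5 it was 25.4% ± 5.93 against 28.2% ± 3.46 (SD, n = 4), lower in 3 libraries and higher in mitotic replicate 4 (exact sign-flip permutation p = 0.25).

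The flank had 10.3% ± 1.92 of its peaks in the strongest 10%, its near part 12.4% ± 3.16 and the downstream stretch 8.64% ± 1.43 (each SD, n = 4). Each exceeded the interval in 4 of 4 libraries (exact sign-flip permutation p = 0.13 for each). The sparse far flank, at 5.68% and 6.35% for asynchronous and 6.94% and 11.1% for mitotic lists, was closer to the interval. Over the 16 comparisons of the interval with other sequence, the Benjamini-Hochberg value of these was 0.167. The smallest sign-flip permutation p that 4 libraries allow is 0.13, so no adjusted value could have passed 0.05. That threshold therefore decides nothing here. The share of peaks in the strongest 10% was chosen as a measure after seeing the data. The highest summit of the interval reached 40 and 29 asynchronous and 36 and 56 mitotic fragments, and that of the flank 109 and 77 asynchronous and 69 and 118 mitotic fragments. The median summit was 11 and 10 against 10 and 13 fragments, which is 8.09 ± 0.607 times the genome background of the library, compared with 9.05 ± 1.04 times over all nuclear peaks (SD, n = 4; lower in 4 of 4 libraries, exact sign-flip permutation p = 0.13). The flank stood at 7.91 ± 0.744 times (SD, n = 4), with the interval higher in 1 library and equal to it in the others (exact sign-flip permutation p = 1). Median peak width was 308 and 291 bp in asynchronous lists and 306 and 310 bp in mitotic lists, so the states overlapped. It was above the nuclear median in both asynchronous libraries (299 and 286 bp) and below it in both mitotic ones (312 and 328 bp). Over all libraries the exact sign-flip permutation p against all nuclear peaks was 0.75. The only interval peaks of more than 1 kb were 4 in mitotic replicate 4, which is 2.25% against 2.30% of its nuclear peaks. Of all nuclear peaks, 1.32% and 0.993% in asynchronous lists and 1.31% in mitotic replicate 3 were that wide.

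**Figure D3:**
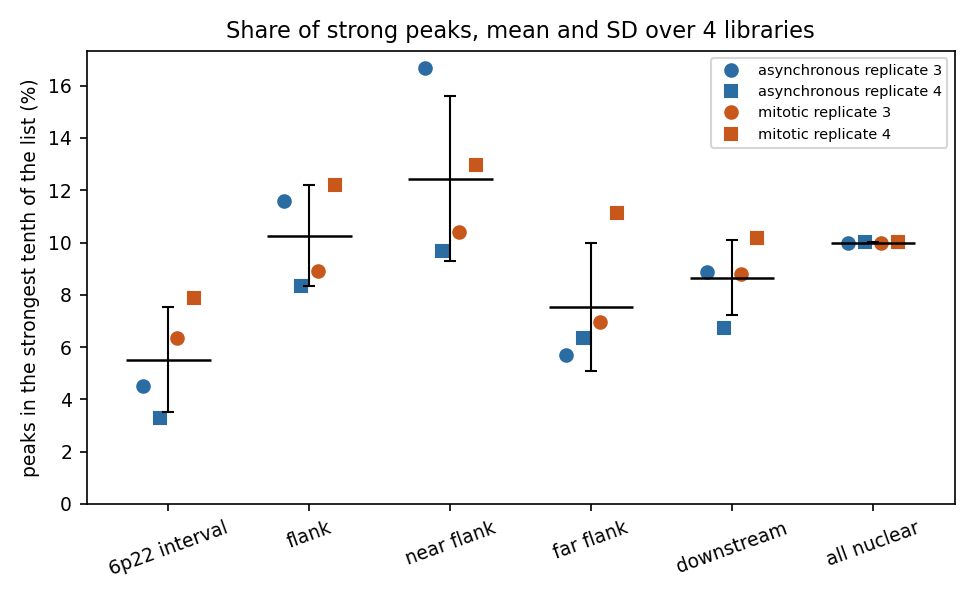
Share of peaks that belong to the strongest 10% of their list (vertical axis, percent) in the 6p22 interval, its flank, the near and far flank, the 2.5 Mb downstream and all nuclear peaks, where it is 10% by construction. Points are libraries, horizontal lines means and bars SD over 4 libraries, and the interval has the lowest mean, 5.51%.

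The share of peaks in the strongest 10% was higher in both mitotic than in both asynchronous libraries, which did not hold for every measure of strength. Asynchronous cells averaged 3.91% ± 0.852 and mitotic cells 7.11% ± 1.06 (SD, n = 2), giving a ratio of 1.82 whose groups did not overlap (exact permutation p = 0.33, the smallest that 2 against 2 libraries allow). These shares rest on 6 and 4 against 7 and 14 peaks, and their comparison was added after seeing the data. With the strongest 20% in place of 10%, the shares were 15.8% and 15.7% against 18.2% and 18.0%, a ratio of 1.15, and with the strongest 5% the groups overlapped. They also overlapped for peaks with a -log10 q of at least 5, which made up 23.3% and 21.5% of asynchronous and 22.7% and 34.3% of mitotic members (exact permutation p = 0.67). Over 16 measures compared between the states, the Benjamini-Hochberg value was 1.

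The abundance of peaks in the interval did not separate the cell states. The interval took 0.132% and 0.158% of the asynchronous and 0.139% and 0.155% of the mitotic nuclear peaks, with means of 0.145% ± 0.0189 and 0.147% ± 0.0110 (SD, n = 2; exact permutation p = 1). The difference was 0.03 log2 units with all libraries, -0.11 without asynchronous replicate 3 and -0.05 without mitotic replicate 4. The ratio of interval to flank density was 1.71 ± 0.124 for asynchronous and 1.69 ± 0.247 for mitotic lists (SD, n = 2; exact permutation p = 1), and its direction turned without asynchronous replicate 4 (0.05 log2 units) or mitotic replicate 3 (0.13 log2 units). Peaks covered 1.83% and 1.52% of the interval in asynchronous lists and 1.56% and 2.78% in mitotic lists, and again the groups overlapped (exact permutation p = 0.667). The genome background, which stands for depth here, was 1.38 and 1.17 fragments for asynchronous and 1.17 and 1.79 for mitotic lists, so the deepest library had the most peaks. The part of depth in these counts was not tested.

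Peak coverage was then compared window by window, with limma fitted to all 19520 nuclear windows of 100 kb that had a peak in at least 2 libraries. None of the 24 tested windows of the interval passed the comparison of mitotic with asynchronous cells after Benjamini-Hochberg adjustment (smallest limma adjusted p = 0.886), and 1 had an unadjusted p under 0.05. Over all windows 0% passed the adjusted threshold and 5.04% had an unadjusted p under 0.05. Differences in the interval ran from -0.71 to 1.01 log2 units, with a median of 0.08 against 0.02 over all windows, and their SE lay between 0.23 and 0.79. The groups did not overlap in 6 of the 24 windows, against 34.0% of all windows. Without single libraries and under the other settings, the median of the interval's windows lay between -0.04 and 0.10 log2 units.

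The window with the smallest p, from 28.1 to 28.2 Mb, had 5 and 3 asynchronous against 8 and 10 mitotic summits. Its covered sequence was 38.4 and 32.1 against 93.1 and 70.7 bp per Mb of the library's total covered length, a difference of 1.01 log2 units (SE 0.35, limma adjusted p = 0.886). Both mitotic libraries were above both asynchronous ones. Next came 26.9 to 27.0 Mb, with 36.1 and 47.6 against 69.7 and 74.4 bp per covered Mb (0.67 log2 units, SE 0.35). In the other direction stood 27.9 to 28.0 Mb, with 64.5 and 150 against 58.2 and 57.6 bp per covered Mb (-0.69 log2 units, SE 0.38), where asynchronous replicate 4 alone was high. All log2 differences of windows are on the scale of covered bp per Mb plus a pseudocount of 10.

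**Figure D4:**
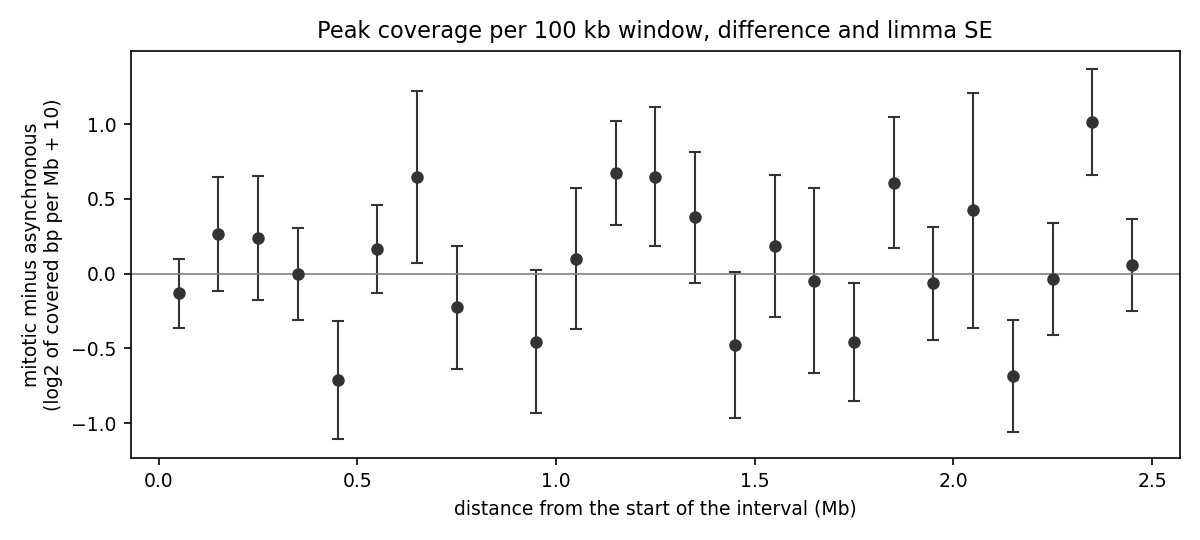
Mitotic minus asynchronous difference in peak coverage (vertical axis, log2 of covered bp per covered Mb plus 10) for the 24 tested windows of 100 kb, against the distance in Mb from the start of the interval (horizontal axis). Points are limma estimates and bars their SE, and the highest point, at 1.01, is the window from 28.1 to 28.2 Mb.

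Most merged regions of the interval came from a single list. Counted by peak, 44.4% and 43.8% of asynchronous and 45.5% and 51.7% of mitotic members overlapped no peak of another list, against 49.1% and 42.8% and 44.3% and 49.4% over the nuclear genome. Merged over the lists, the members formed 354 regions, and 254 (71.8%) of them came from 1 list, 45 (12.7%) from 2 lists, 33 (9.32%) from 3 lists and 22 (6.21%) from all 4. Over the nuclear genome 71.8% were found in 1 library and 8.38% in all 4, and in the flank 76.0% and 7.52%. Of the 33 regions in 3 lists, 15 lacked a peak in mitotic replicate 3, 9 in asynchronous replicate 4, 6 in asynchronous replicate 3 and 3 in mitotic replicate 4. The shallower library of each group was thus the one missing more often. Libraries of the same state shared 16.6% (asynchronous) and 16.8% (mitotic) of the bases covered by either list in the interval, and libraries of different states 15.97% to 19.7%.

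The 22 regions called in every library are named the recurrent regions of the interval here. They were merged from peaks that share at least 1 bp, and with 50% reciprocal overlap 16 were left. The 22 were 324 to 1571 bp wide. The summits of the 4 libraries lay 63 to 687 bp apart in a region, with a median of 231 bp. This distance was within 100 bp in 6 of the 22. The region that ranked first by its mean q-value rank over the libraries, from 25857812 to 25859382, reached 35 and 27 asynchronous and 36 and 56 mitotic fragments. As a multiple of the library's median over all 20334 such nuclear regions, its summit stood at 1.34 ± 0.0808 for asynchronous and at 1.75 ± 0.0729 for mitotic cells (SD, n = 2). It held the widest peak of the interval in both mitotic lists.

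The second, from 26342142 to 26342750, had 37 and 20 asynchronous against 22 and 46 mitotic fragments, and its summits lay within 110 bp of each other. The third, from 27950003 to 27951267, had 29 and 20 against 27 and 47 fragments, with its strongest summits within 67 bp. The fourth, from 27994153 to 27994875, had 20 and 26 against 21 and 37 fragments. These 3 regions overlapped between the states in raw fragments, which carry library depth. As multiples of the library's median, the region from 27950003 stood at 1.16 and 0.952 asynchronous against 1.35 and 1.42 mitotic. Its groups thus did not overlap on that scale, whereas those of the regions from 26342142 and 27994153 did. The fifth, from 27001276 to 27002122, had 40 and 19 against 25 and 48 fragments and the highest asynchronous summit. The sixth, from 27120016 to 27120909, had 26 and 29 against 27 and 31 fragments. The next 4 by rank began at 26388868, 28207126, 26824529 and 28254763, with 14 to 33 fragments. The remaining 12 ranked lower, down to 13 and 8 against 7 and 14 fragments at 26538535 to 26539572. The 10 highest were spread over the interval, from 25857812 to 28255413.

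None of the 22 recurrent regions passed the test of summit height between the states. By limma over all 20334 nuclear regions called in every library, 0.0590% passed with Benjamini-Hochberg adjustment, and 0 of the 22 did (smallest limma adjusted p = 0.644). At an unadjusted p under 0.05 there were 0 of 22, against 8.90% of all. Differences of more than 0.5 log2 units were found in 1 of the 22, against 10.6% of all, and the groups did not overlap in 7 of the 22, against 37.3%. In 17 of the 22 the mitotic mean was the higher one, against 9663 of all 20334. The 22 come from the same 4 libraries with the same scaling and are not independent replicates. Their median difference was 0.17 log2 units, against -0.02 over all such regions, with an SE of 0.23 to 0.34 for single regions. Under the other settings and without each library the median lay between 0.12 and 0.28 log2 units. The smallest p belonged to the region from 26527769 to 26528364, with 20 and 10 asynchronous against 18 and 29 mitotic fragments, a difference of 0.53 log2 units (SE 0.31). It was followed by the region from 25857812, at 0.38 (SE 0.23), the one from 27950003, at 0.40 (SE 0.26), the one from 26164182, at 0.44 (SE 0.30), and the one from 25887079, at 0.37 (SE 0.27). All 5 were on the mitotic side.

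**Figure D5:**
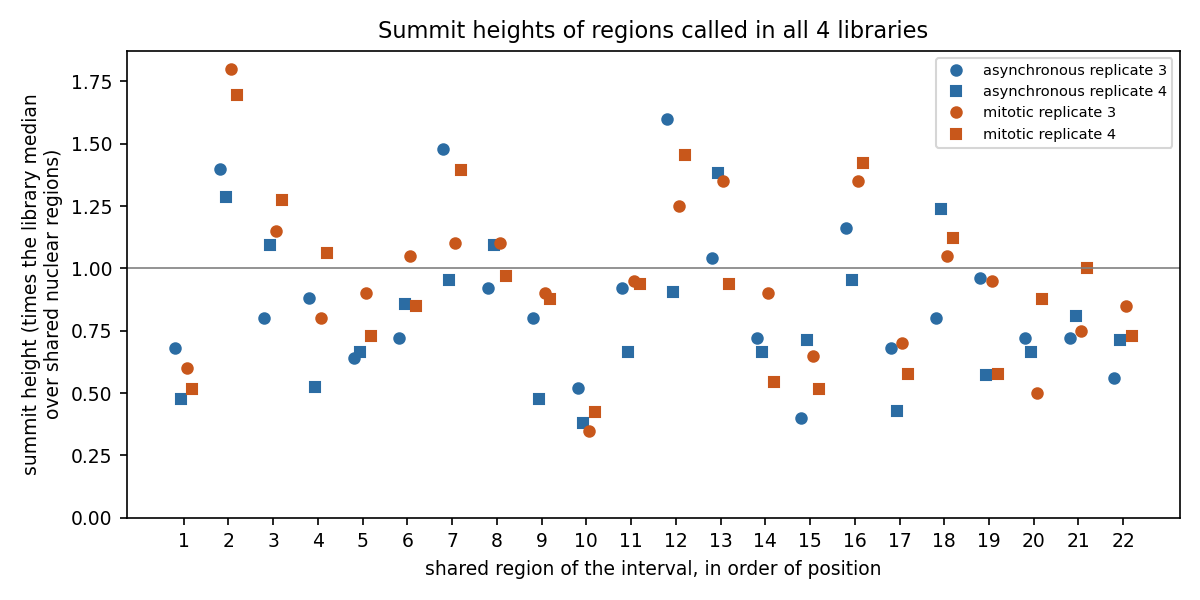
Summit height of the 22 regions called in all 4 libraries, as multiples of the library's median over all such nuclear regions (vertical axis, 1 marked by a grey line), in order of position (horizontal axis), for asynchronous (blue) and mitotic (orange) libraries. The second region from the left, from 25857812 to 25859382, is the highest in the mitotic libraries, at 1.80 and 1.70, and most regions lie under 1.

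The median summit of these 22 regions was 20 and 15 fragments in asynchronous cells against 18.5 and 30 in mitotic cells. Relative to the median over all recurrent nuclear regions it stood at 0.800 and 0.714 against 0.925 and 0.909, under 1 in each library. The groups did not overlap (exact permutation p = 0.33). The lists also hold a contig named as the spike-in, whose link to the E. coli DNA is not stated. Per 1000 fragments at the highest spike-in summit, the median of the 22 regions was 0.501 and 0.536 against 0.283 and 0.263 in mitotic cells, a ratio of 0.527 between the groups (exact permutation p = 0.33). On that scale the mitotic libraries were the lower ones, and relative to other nuclear regions they were the higher ones. The spike-in summit stood at 28980 and 24019 times the genome background in asynchronous and 55735 and 63912 times in mitotic lists. That scale therefore lowers mitotic values over the whole genome and not in the interval alone. Spike-in summits of 28009 to 114250 fragments lie above the 200 up to which recovered pileups were checked.

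Regions found in both libraries of one state and in neither of the other were few. There were 6 asynchronous-only regions (1.69% of the 354) and 10 mitotic-only regions (2.82%), against 1.66% and 2.80% of all nuclear regions, so both shares were near those of the genome. A further 29 regions had a peak in 1 library of each state. The strongest asynchronous-only region, from 26289672 to 26290063, had 26 and 20 fragments, followed by 25893188 to 25893704 with 21 and 20 and 26308753 to 26309036 with 15 and 13. The strongest mitotic-only region, from 28133193 to 28134068, had 11 and 13 fragments. The next were 25955567 to 25956098 with 12 and 18 fragments and 28123840 to 28124538 with 12 and 13. Of the 10 mitotic-only regions, 3 lay in the window from 28.1 to 28.2 Mb. Their peaks are part of that window's mitotic coverage given above and are no separate observation. At the stricter threshold (-log10 q of at least 5), 2 asynchronous-only and 3 mitotic-only regions were counted, and with a common smallest peak width 5 and 12. The order turned round with lists of equal length, at 5 asynchronous-only and 4 mitotic-only regions, and with 50% reciprocal overlap, at 7 and 6.

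The edges of the interval did not cut through a strong site. The nearest summit inside the left edge lay 5.43 kb in (13 fragments, mitotic replicate 4) and the nearest outside 13.1 kb away (9 fragments, mitotic replicate 3). At the right edge the nearest summits lay 1.62 kb inside (8 fragments, mitotic replicate 3) and 9.79 kb outside (10 fragments, asynchronous replicate 3), and each of these 4 peaks was found in 1 list.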

How the data were processed

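The build hs1 and the tools fastp, Bowtie2, MACS2 and bedtools are named per the submitters' processing notes, without versions; parameters, control and duplicate handling: not given in the sources used here. The authors deposited 1 narrowPeak list per library, with a fold enrichment (a ratio of summit to local background), -log10 p-values and -log10 q-values per peak, which are the authors' own values; every list began just above a -log10 q of 1. Summit pileups (fragments) were recovered from the deposited fold and p; all those under 200 came out whole within 0.05. The smallest local background of a list served as its genome background, which stands for depth; library totals were not used here.

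Windows and regions called in all 4 libraries were fitted over the whole nuclear genome with limma 3.58.1 (R 4.3.3, trended prior, threshold 0.05), and pileups were divided by the library's median over such regions. Other values were compared by exact permutation over libraries (Python 3.11.15, scipy 1.17.1). The recovery of pileups and the limma fits were tested on simulated data, and the other steps were not. Peaks sharing at least 1 bp were merged. Regions were named by rank of q, smallest p, or state; windows by most and fewest summits and smallest p. Members, lists and stretches were chosen with earlier results of these data known. Gene starts with a peak, and windows with and without histone genes, were planned and not run, since the gene table is of GRCh38.p14. Alternatives were a stricter q, equal list lengths, other flanks, measures, pseudocounts, filters, scalings and overlaps, the replicate block, and each library left out.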

Additional observations from a re-analysis of the deposited data

How the results depend on the processing

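The interval to flank density ratio of 1.70 kept its direction with a stricter q (1.45), equal lists (1.69), covered bases (1.67) and a common smallest width (1.70). It also did so against the rest of chromosome 6 (2.16) and the far flank (2.89), and without each library (1.64 to 1.76). It turned to 0.816 against the near flank and 0.800 against the downstream stretch. Without single libraries the mitotic minus asynchronous log2 share of peaks ran from -0.11 to 0.16, and the log2 density ratio from -0.17 to 0.13. Asynchronous-only and mitotic-only regions numbered 6 and 10, and 2 and 3 with -log10 q of at least 5. They numbered 5 and 4 with equal lists, 7 and 6 with 50% reciprocal overlap, and 5 and 12 with a common smallest width. Calls among all recurrent nuclear regions numbered 12, 0 with background scaling, 0 without the prior's trend, 31 with a common smallest width, 6 without asynchronous replicate 3, 5 without asynchronous replicate 4, 1 without mitotic replicate 3 and 12 without mitotic replicate 4 (range 1 to 12); none was in the interval under any of these. No window passed under any setting run. The window from 26.9 to 27.0 Mb turned to -0.27 log2 units with -log10 q of at least 5; the cause was not tested. The labels share only replicate numbers, and deviations of same-numbered libraries correlated at 0.00019 over windows and -0.049 over regions. With the replicate block, 0 windows and 14 nuclear regions were called, none in the interval, and the log2 share differed by 0.03. Gene starts and windows with histone genes were not run. Summits of 6 to 56 fragments limit the precision of single regions.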

Other observations

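Among stretches of 2.5 Mb that held more peaks than the 6p22 interval, the share of strong peaks was usually higher than in the interval. There were 272 and 206 such stretches in asynchronous lists and 242 and 205 in mitotic lists, and the median share of their peaks in the strongest 10% of the list was 9.84% and 10.3% against 10% and 10.1%. The interval's shares were 4.51% and 3.31% against 6.36% and 7.87%, and 4 and 4 of these stretches in asynchronous lists and 28 and 49 in mitotic lists were at or under them. It was added once the shares were known and has no test.

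Strong peaks of the interval were found in more lists than weak ones, as over the nuclear genome. Of interval peaks in the strongest 10% of a list, 6 of 6 and 3 of 4 asynchronous and 5 of 7 and 10 of 14 mitotic peaks lay in regions called in all 4 lists, and 0 were found in 1 list only. Of those in the weakest 10%, 0 of 11 and 0 of 13 against 1 of 16 and 0 of 9 lay in such regions. Over the nuclear genome these shares were 90.5% and 93.8% of asynchronous and 92.0% and 85.9% of mitotic peaks in the strongest 10%, and 1.84% and 3.66% against 3.27% and 1.26% in the weakest. The strongest peak found in 1 list only, in mitotic replicate 4 from 25934201 to 25934393, had 28 fragments and a width of 193 bp.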
